A study of Mus musculus with 8 samples.

Results

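Crabp2 and 8 other genes of retinoic acid signalling were followed in OT-I CD8+ T cells that had been exposed to an agonist of the liver X receptors (LXR). The 9 genes are the retinoic acid carriers Crabp2 and Crabp1, the receptors Rara, Rarb and Rarg, and the retinoid enzymes Rdh10, Rdh11, Dhrs3 and Cyp26b1. Each was taken from the deposited table by its symbol, and all 9 were found among its 41730 entries. The set was chosen from the measured difference of Crabp2 between treated and control libraries, so the levels and differences of the 9 genes are given as a description, without p-values. OT-I cells are mouse T cells with a transgenic receptor for the ovalbumin peptide SIINFEKL. They were stimulated by bone-marrow-derived dendritic cells loaded with that peptide and then purified by flow cytometry. The treated cultures received 2 µM RGX-104, a synthetic LXR agonist (4 libraries, replicates 5 to 8), and the control cultures received the solvent DMSO (4 libraries, replicates 1 to 4). All 8 libraries carry the OT-I genotype and come from co-cultures with peptide-pulsed dendritic cells, so neither resting T cells nor T cells treated without dendritic cells were compared. The sources used here give neither the age and sex of the animals nor the length of culture.

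Retinoic acid is made from vitamin A in steps. Retinol dehydrogenases such as Rdh10 turn retinol into retinal, and retinal dehydrogenases of the Aldh1a group turn retinal into retinoic acid. Crabp2 carries retinoic acid from the cytosol to the nucleus, where it binds a retinoic acid receptor paired with a retinoid X receptor on DNA; LXR uses the same partner. Cyp26 enzymes break retinoic acid down. In the gut, dendritic cells make retinoic acid and T cells that receive it gain the homing receptors Ccr9 and integrin alpha4 beta7.

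Total counts per library ranged from 13144704 to 15966972. Values are in CPM, a gene's count scaled to a fixed library size, with library sizes corrected by the trimmed mean of M-values (TMM). Libraries were made with a 3′ end kit, so a value counts reads near transcript ends. Abca1, a cholesterol exporter and an LXR target that served as a check of the treatment label, averaged 85.2 ± 5.42 CPM in RGX-104 libraries and 8.13 ± 0.569 CPM in control libraries (SD, n = 4 each). Abcg1, a second such target, averaged 53.3 ± 8.28 CPM in RGX-104 and 10.003 ± 2.10 CPM in control libraries. Cd8a, the CD8 alpha chain, was between 388 and 407 CPM in RGX-104 and between 266 and 289 CPM in control libraries, so the labelled cell type carried its defining marker in all 8. The 8 CD8 T cell markers summed to 1983 to 2076 CPM in RGX-104 and 1632 to 1685 CPM in control libraries. At an adjusted p under 0.05 edgeR called 4 of them higher, Cd8a, Cd8b1, Lat and Thy1, against 0.888% of all genes tested. The call of Thy1 was lost without any one of control replicates 2 and 3 and RGX-104 replicates 5 to 8. DESeq2 called Cd3g as well. All 8 markers had a positive log2 fold change, and 7 had an unadjusted edgeR p under 0.05. Treated libraries all lay above the controls for 5 of them, against 3.88% of all genes. Cd4 had at most 2 counts in any library and Cd79a, a B cell gene, had 0. Of 15 dendritic cell markers 9 could be tested and 0 were called by edgeR at an adjusted p under 0.05 (3 had an unadjusted p under 0.05; limma-voom called 0 and DESeq2 called Batf3 with an adjusted p of 0.0155). Their summed level was 575 to 676 CPM in RGX-104 and 586 to 655 CPM in control libraries, mostly from Ccr7, Cst3 and Batf3, of which activated T cells express Ccr7 and Batf3 themselves. Of the 9 tested markers 6 had a negative log2 fold change, with a median of -0.30, and the 3 with an unadjusted p under 0.05 were all lower in RGX-104. They were Batf3 at 52.8 to 62.4 CPM in RGX-104 and 66.7 to 77.1 CPM in control libraries (log2 fold change -0.30, edgeR adjusted p = 0.0612), Ccl22 at 1.61 ± 0.902 CPM in RGX-104 and 3.66 ± 0.682 CPM in control libraries (-1.18, edgeR adjusted p = 0.165), and Fscn1 at 2.37 ± 0.613 CPM in RGX-104 and 4.23 ± 0.909 CPM in control libraries (-0.83, edgeR adjusted p = 0.224). For Batf3 and Ccl22 all treated libraries lay below all controls. The class II genes H2-Aa and H2-Ab1 were listed at 0 in all libraries, but the table repeats both symbols with a number appended, so these values are not read as absence. Macrophage markers (7 of 10 tested; edgeR, DESeq2 and limma-voom each called 0, and 0 had an unadjusted p under 0.05) summed to 56.8 to 63.2 CPM in RGX-104 and 50.7 to 57.5 CPM in control libraries. The part of these cells in the results was not tested. Since separate cultures or animals are not named in the labels, errors and p-values measure the scatter among these libraries alone, and that scatter may be technical.

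Crabp2 RNA was 2.35-fold higher with the LXR agonist, and the RNA of the receptor Rara was 1.54-fold higher. The other 5 genes that could be tested, Rarg, Rdh10, Rdh11, Dhrs3 and Cyp26b1, overlapped between the groups, and Crabp1 and Rarb were at or near the limit of detection in every library.

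Crabp2 (chromosome 3, 87948693 to 87953372, plus strand, GRCm38.p6) was at 157, 166, 176 and 188 CPM in RGX-104 replicates 5 to 8. In control replicates 1 to 4 it was at 73.9, 77.2, 73.3 and 68.4 CPM. All 4 treated libraries lay above all 4 control libraries, and the lowest treated value was 157 CPM against a highest control value of 77.2 CPM. The group means were 172 ± 13.3 CPM in RGX-104 and 73.2 ± 3.65 CPM in control libraries (SD, n = 4 each), a log2 fold change of 1.23 ± 0.07 (SE) with a 95% interval of 1.09 to 1.37. On the linear scale this is 2.35-fold. Each library held at least 1035 Crabp2 reads and at most 2633, and the gene's biological coefficient of variation was 6.76%, against 14.5% common to all genes. By log2 fold change Crabp2 stood at position 39 of 12162 genes tested. That order includes genes that were not called: 11 genes were called higher with a log2 fold change of at least 1. Exons of Crabp2 overlap no other gene in GENCODE M21. In bulk RNA, a change in the number of cells that express a gene cannot be told apart from a change in RNA per cell.

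Crabp1, the other cytosolic carrier of retinoic acid (chromosome 9, 54764748 to 54773110), had 2 counts in RGX-104 replicate 6 and 0 in the other 3 treated libraries. It had 7 counts in control replicate 2 and 0 in the other 3 control libraries. A count of 0 allows a level of up to 3 counts, which was 0.189 to 0.229 CPM across the libraries, so the reads of Crabp1 came from 1 library in each group and gave no difference that this depth could show.

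**Figure D1:**
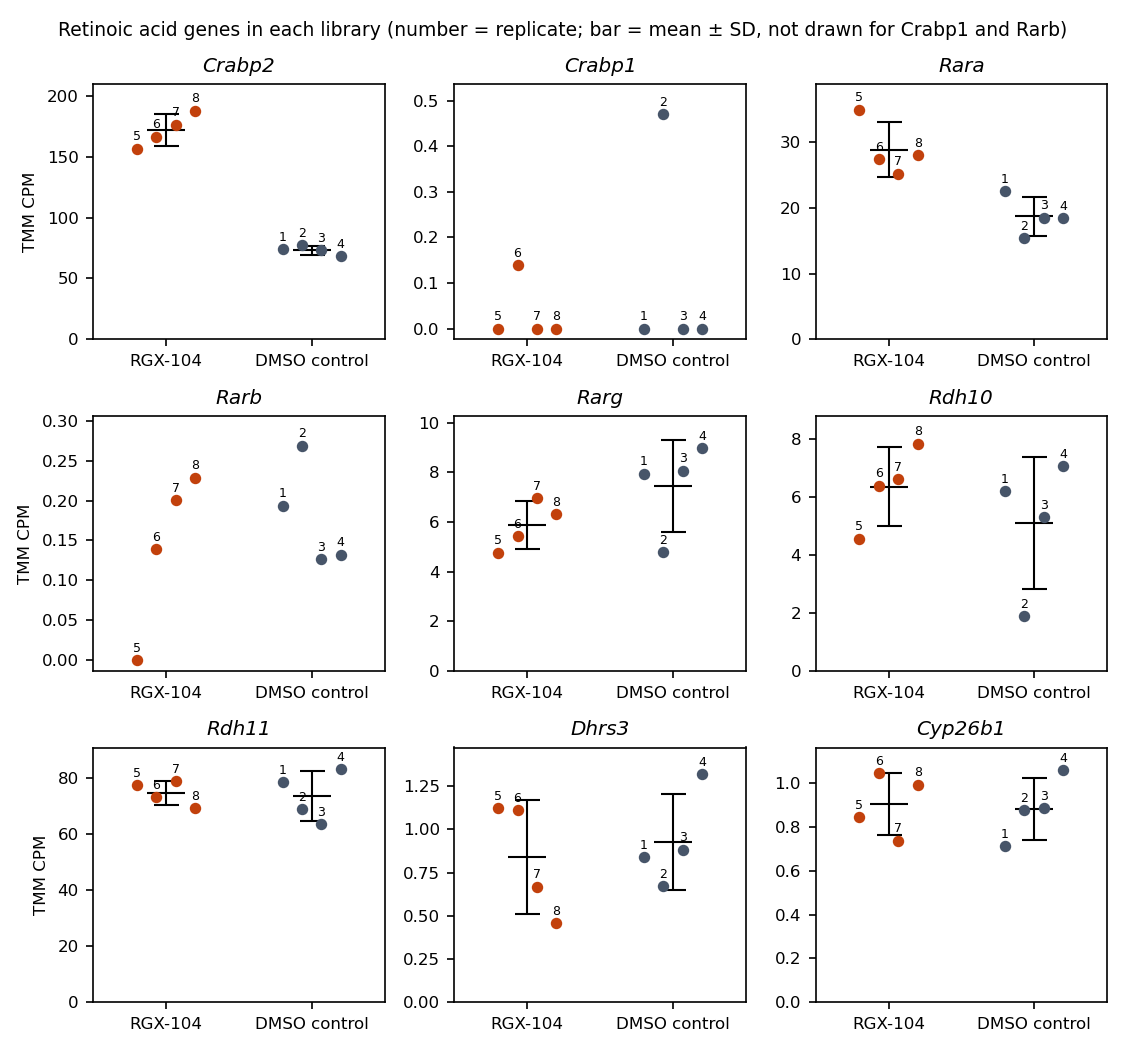
Level of each of the 9 retinoic acid genes in every library, in TMM CPM (vertical axes differ between panels), with RGX-104 libraries left of DMSO control libraries. Points are libraries labelled by replicate number and bars are the mean ± SD of 4 libraries (not drawn for Crabp1 and Rarb); Crabp2 (157 to 188 against 68.4 to 77.2 CPM) and Rara (25.2 to 34.9 against 15.3 to 22.5 CPM) are the panels without overlap between groups.

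Among the receptors, Rara, which encodes retinoic acid receptor alpha (chromosome 11, 98927800 to 98974942, plus strand), was at 34.9, 27.3, 25.2 and 28.0 CPM in RGX-104 replicates 5 to 8. Control replicates 1 to 4 were at 22.5, 15.3, 18.5 and 18.4 CPM. The groups did not overlap, but the gap between 25.2 CPM in RGX-104 replicate 7 and 22.5 CPM in control replicate 1 was narrower than the spread within either group. The means were 28.8 ± 4.19 CPM in RGX-104 and 18.7 ± 2.96 CPM in control libraries (SD, n = 4 each), a log2 fold change of 0.63 ± 0.14 with a 95% interval of 0.33 to 0.92, or 1.54-fold. The log2 fold change was 0.52 without RGX-104 replicate 5, the treated library with the most Rara, 0.54 without control replicate 2, the control with the least, and 0.62 without control replicate 3; in these 3 fits Rara no longer passed the threshold that it passed with all libraries. It passed in the other 5 fits with 1 library left out. Because this contrast chose the set, these calls describe the fits and nothing is read from them. RGX-104 replicate 5 also had the lowest Crabp2 level of the treated libraries.

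Rarg, which encodes receptor gamma (chromosome 15, 102234938 to 102257522, minus strand), was at 4.77, 5.42, 6.96 and 6.32 CPM in RGX-104 libraries. Control replicates 1 to 4 were at 7.95, 4.77, 8.08 and 8.98 CPM. Treated libraries were lower than 3 of the 4 controls, while control replicate 2 lay at the bottom of the treated range. The means were 5.87 ± 0.968 CPM in RGX-104 and 7.44 ± 1.84 CPM in control libraries, and the log2 fold change was -0.34 ± 0.24 with a 95% interval of -0.84 to 0.15. Rara and Rarg thus had estimates of opposite sign.

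Rarb, which encodes receptor beta (chromosome 14, 16430839 to 17082331, minus strand), is a textbook target of retinoic acid through a direct repeat of the nuclear receptor hexamer just upstream of one of its start sites. It is shown here because the repeat is present in the reference sequence while the transcript was barely counted. The window below is RefSeq's reference sequence of GRCm38.p6, chr14:16575427-16575726 on the minus strand, with the 2 hexamers in capitals.

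Rarb: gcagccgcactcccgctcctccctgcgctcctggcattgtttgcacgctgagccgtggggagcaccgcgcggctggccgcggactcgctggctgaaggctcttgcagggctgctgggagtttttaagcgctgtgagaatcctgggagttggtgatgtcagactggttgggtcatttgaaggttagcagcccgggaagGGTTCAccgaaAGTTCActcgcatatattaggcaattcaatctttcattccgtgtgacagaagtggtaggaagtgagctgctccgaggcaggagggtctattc

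The first run of capitals is GGTTCA and the second is AGTTCA, which lie 5 bases apart, and the repeat begins 53 bases upstream of the annotated start. The search covered both strands for any pair, in the same orientation, of the hexamer AGGTCA, the hexamer GGGTCA, the hexamer AGTTCA or the hexamer GGTTCA, 1, 2, 4 or 5 bases apart. A repeat with 5 bases between the hexamers was found in 0.0974% of 32851 promoter windows of the same length (300 bases), and among 14 windows of 7 of the 9 genes only in that of Rarb. Repeats with 1, 2 or 4 bases between were in 0.222%, 0.268% and 0.0822% of all windows and in 0 of the 14. Crabp2 and Rdh10 had no window in the table. A match of letters is a description of the window and not of binding. Rarb had 0, 2, 3 and 3 counts in RGX-104 replicates 5 to 8 and 3, 4, 2 and 2 counts in control replicates 1 to 4. The sums were 8 counts in RGX-104 (exact Poisson 95% interval 3.45 to 15.8) and 11 counts in control libraries (5.49 to 19.7), intervals that cover counting error only and overlap widely. Exons of Rarb share 1793 bp with Top2b on the opposite strand, so even these few reads are uncertain.

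The enzymes that make and consume retinal overlapped between the groups throughout. Rdh10, the dehydrogenase that oxidises retinol to retinal (chromosome 1, 16105882 to 16132550, plus strand), was at 4.56, 6.40, 6.63 and 7.85 CPM in RGX-104 libraries. Control replicates 1 to 4 were at 6.20, 1.88, 5.30 and 7.07 CPM. Control replicate 2 was the low value, with 28 counts, and the other 7 libraries lay between 4.56 and 7.85 CPM. The log2 fold change was 0.31 ± 0.31, with a 95% interval of -0.33 to 0.96, and it was 0.04 without control replicate 2.

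Rdh11, which reduces retinal to retinol (chromosome 12, 79174233 to 79191855, minus strand), was at 77.5, 73.3, 79.1 and 69.3 CPM in RGX-104 libraries. In control replicates 1 to 4 it was at 78.6, 69.1, 63.7 and 83.3 CPM. The treated libraries lay inside the control range, with means of 74.8 ± 4.42 CPM in RGX-104 and 73.7 ± 8.91 CPM in control libraries. With at least 909 reads in each library, its log2 fold change of 0.02 ± 0.09 had a 95% interval of -0.16 to 0.20, the narrowest of the genes that overlapped between groups.

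Dhrs3, which returns retinal to retinol and is itself induced by retinoic acid in several tissues (chromosome 4, 144892534 to 144928209, plus strand), was at 1.12, 1.11, 0.670 and 0.457 CPM in RGX-104 libraries. It was at 0.840, 0.672, 0.883 and 1.32 CPM in control libraries. Cyp26b1, a cytochrome P450 that degrades retinoic acid (chromosome 6, 84571414 to 84593908, minus strand), was at 0.842, 1.04, 0.736 and 0.991 CPM in RGX-104 libraries. It was at 0.711, 0.874, 0.883 and 1.06 CPM in control libraries. Both were counted at 6 to 20 reads a library, and their log2 fold changes of -0.14 ± 0.52 (95% interval -1.21 to 0.93) for Dhrs3 and 0.03 ± 0.49 (-0.98 to 1.05) for Cyp26b1 left room for differences of about 2-fold at this depth.

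**Figure D2:**
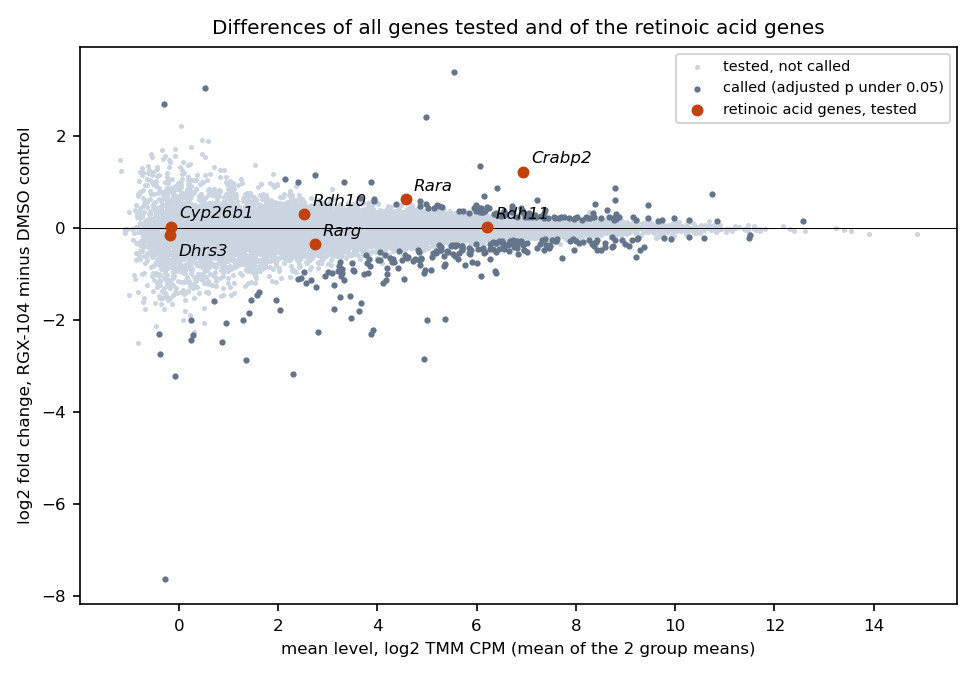
Log2 fold change (RGX-104 minus DMSO control, vertical) against mean level (log2 TMM CPM, horizontal) for all 12162 genes tested, with the 7 tested retinoic acid genes in orange and called genes in dark grey. Crabp2 (1.23) stands above the uncalled genes of its level, Rara (0.63) lies at their upper edge, and the other 5 lie among them.

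Of the 9 genes, 7 passed the filter on low counts and 2, Crabp1 and Rarb, did not. In the edgeR fit across all genes, 324 of 12162 genes (2.66%) were called at an adjusted p under 0.05, of which 108 (0.888%) were higher and 216 (1.78%) lower in RGX-104. The number called higher was 57 to 66 without any one of control replicates 1, 2 and 3 and RGX-104 replicates 6, 7 and 8, and 190 with DESeq2. Of the 7 tested retinoic acid genes, 2 were called higher, Crabp2 and Rara, and 0 were called lower; since this contrast chose the set, nothing is read from the count. The same holds for overlap: treated libraries lay outside the control range for 8.20% of all genes (3.88% all above, 4.32% all below), and for 2 of these 7, both above. The median log2 fold change was 0.03 over the 7 genes and 0.00276 over all genes tested.

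**Figure D3:**
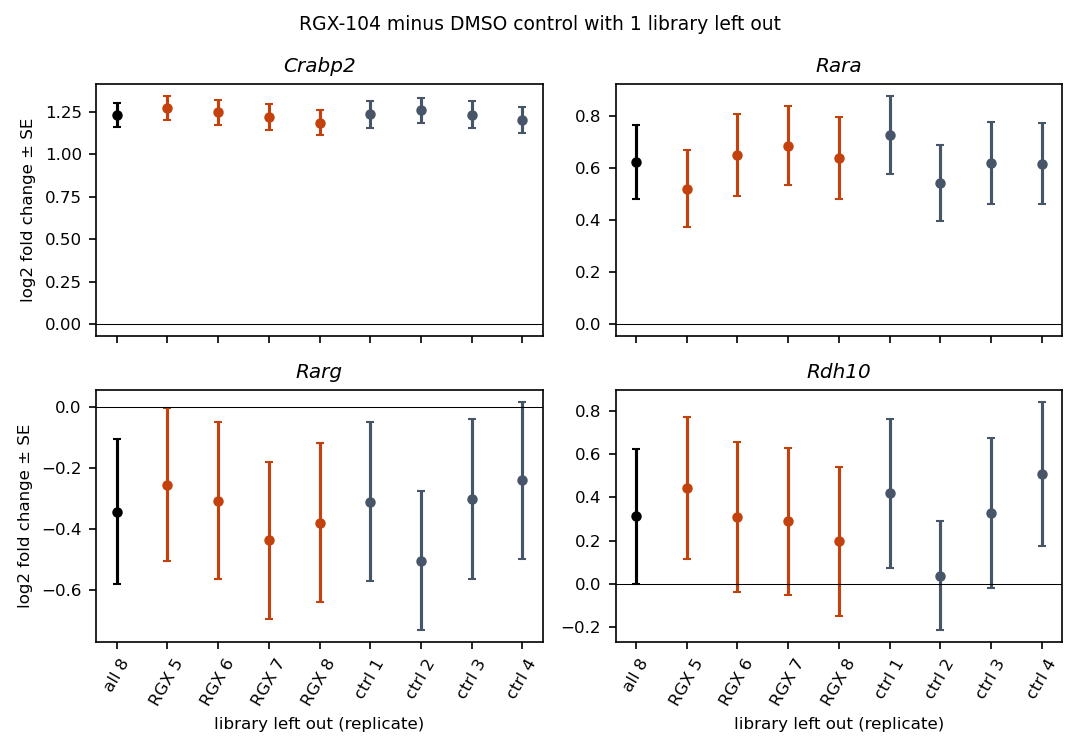
Log2 fold change ± SE (RGX-104 minus DMSO control, vertical) of Crabp2, Rara, Rarg and Rdh10 with all 8 libraries (black) and with 1 library left out (horizontal; orange for RGX-104, grey for DMSO control). Crabp2 stays between 1.19 and 1.27 and Rara between 0.52 and 0.73, while Rdh10 moves to 0.04 without control replicate 2.

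Further genes of retinoid handling and response were taken from 7 lists. Of these 74 genes, chosen with earlier results of these data known, 32 could be tested and 18 were listed at 0 in all libraries. In the edgeR fit 0 rose and 1 fell, against 0.888% and 1.78% of all genes, and 4 had an unadjusted p under 0.05. The corepressor Nrip1, which silences nuclear receptor targets and is itself a retinoic acid responsive gene, was the one that fell. It was at 73.8, 75.6, 72.8 and 77.0 CPM in RGX-104 libraries and at 84.6, 107, 95.2 and 87.9 CPM in control libraries. All treated libraries lay below all controls (log2 fold change -0.32 ± 0.08, edgeR adjusted p = 0.0247). The call was lost without any one of control replicates 2 and 3 and RGX-104 replicates 5 to 8, where the log2 fold change ran from -0.25 to -0.34 and the edgeR adjusted p from 0.0571 to 0.113. DESeq2 and limma-voom called the same single gene of these lists. The median log2 fold change over the 32 genes was -0.03, and 15 were positive and 17 negative. Treated libraries all lay above the controls for 1 of the 32, Hdac3, and all below for 2, Nrip1 and Itga4, against 3.88% and 4.32% of all genes.

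In the list of corepressors and coactivators 12 of 13 genes were tested, and Nrip1 was the only one called by edgeR, DESeq2 or limma-voom. Ncor1, the corepressor that unliganded retinoic acid receptors and LXR recruit, averaged 545 ± 11.3 CPM in RGX-104 and 538 ± 18.6 CPM in control libraries (SD, n = 4 each; log2 fold change 0.02, 95% interval -0.07 to 0.11). The retinoid X receptor Rxra, the common partner of retinoic acid receptors and LXR, was at 9.40, 15.02, 7.70 and 6.86 CPM in RGX-104 libraries and at 9.04, 7.73, 3.91 and 6.14 CPM in control libraries. These ranges overlapped (log2 fold change 0.54 ± 0.27, edgeR adjusted p = 0.374). RGX-104 replicate 6 was the highest, and without it the log2 fold change was 0.25, and 0.35 without control replicate 3. Rxrg was listed at 0 in all libraries, and so was Rxrb, whose symbol the table repeats with a number appended. The repeat, Rxrb_1, was also at 0 in all libraries. Because the symbol is repeated, neither 0 of Rxrb is read as absence.

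Among carriers and uptake genes 2 of 8 were tested and 0 were called by edgeR, DESeq2 or limma-voom (0 with an unadjusted p under 0.05). Of the fatty acid binding proteins, the protein family to which both Crabp genes belong, 2 of 10 were tested and 0 were called by any of the 3 tools (0 with an unadjusted p under 0.05). Fabp5, which can carry retinoic acid to the receptor PPAR delta, averaged 100.2 ± 5.12 CPM in RGX-104 and 105 ± 11.3 CPM in control libraries, with a log2 fold change of -0.07 and a 95% interval of -0.23 to 0.09.

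Of the enzymes of retinol and retinal 10 of 24 were tested and 0 were called by edgeR, DESeq2 or limma-voom (1 with an unadjusted p under 0.05). That one was Rdh5, a retinol dehydrogenase best known from the eye, at 0.210, 0.973, 0.0670 and 0.229 CPM in RGX-104 libraries and at 1.68, 1.55, 0.379 and 1.45 CPM in control libraries (log2 fold change -1.75 ± 0.67, edgeR adjusted p = 0.225). The groups overlapped, and without RGX-104 replicate 6, the highest treated library, the log2 fold change was -2.86 (edgeR adjusted p = 0.0768). Counts were 1 to 26 a library, and 720 bp of its exons are shared with Bloc1s1 on the same strand. Adh5, an alcohol dehydrogenase, averaged 101 ± 6.93 CPM in RGX-104 and 91.6 ± 11.2 CPM in control libraries (log2 fold change 0.14, edgeR adjusted p = 0.498). Aldh1a2, the retinal dehydrogenase of gut dendritic cells, had 0 to 3 counts in RGX-104 and 1 to 4 counts in control libraries, too few to test. Both further retinoic acid degrading enzymes, Cyp26a1 and Cyp26c1, were listed at 0 in all 8 libraries.

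Of 14 genes known to respond to retinoic acid 5 were tested and 0 were called by edgeR, DESeq2 or limma-voom (1 with an unadjusted p under 0.05). The integrin subunit Itga4, a chain of the gut-homing receptor alpha4 beta7, was at 17.0, 12.4, 17.0 and 12.3 CPM in RGX-104 libraries and at 21.9, 19.0, 19.3 and 19.95 CPM in control libraries. The groups did not overlap, with treated libraries below (log2 fold change -0.44 ± 0.15, edgeR adjusted p = 0.160), and 1124 bp of its exons overlap Cerkl on the opposite strand. Its partner chain Itgb7 averaged 22.2 ± 3.19 CPM in RGX-104 and 18.8 ± 2.23 CPM in control libraries, with overlap (log2 fold change 0.24 ± 0.14, edgeR adjusted p = 0.491). The 2 chains had estimates of opposite sign and neither was called. Ccr9, the gut-homing chemokine receptor, was at 0.842, 0.695, 1.07 and 0.838 CPM in RGX-104 libraries and at 0.904, 0.672, 1.14 and 4.23 CPM in control libraries. Only control replicate 4 stood apart, and the 95% interval of the log2 fold change was -2.16 to 0.16 (edgeR adjusted p = 0.447).

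**Figure D4:**
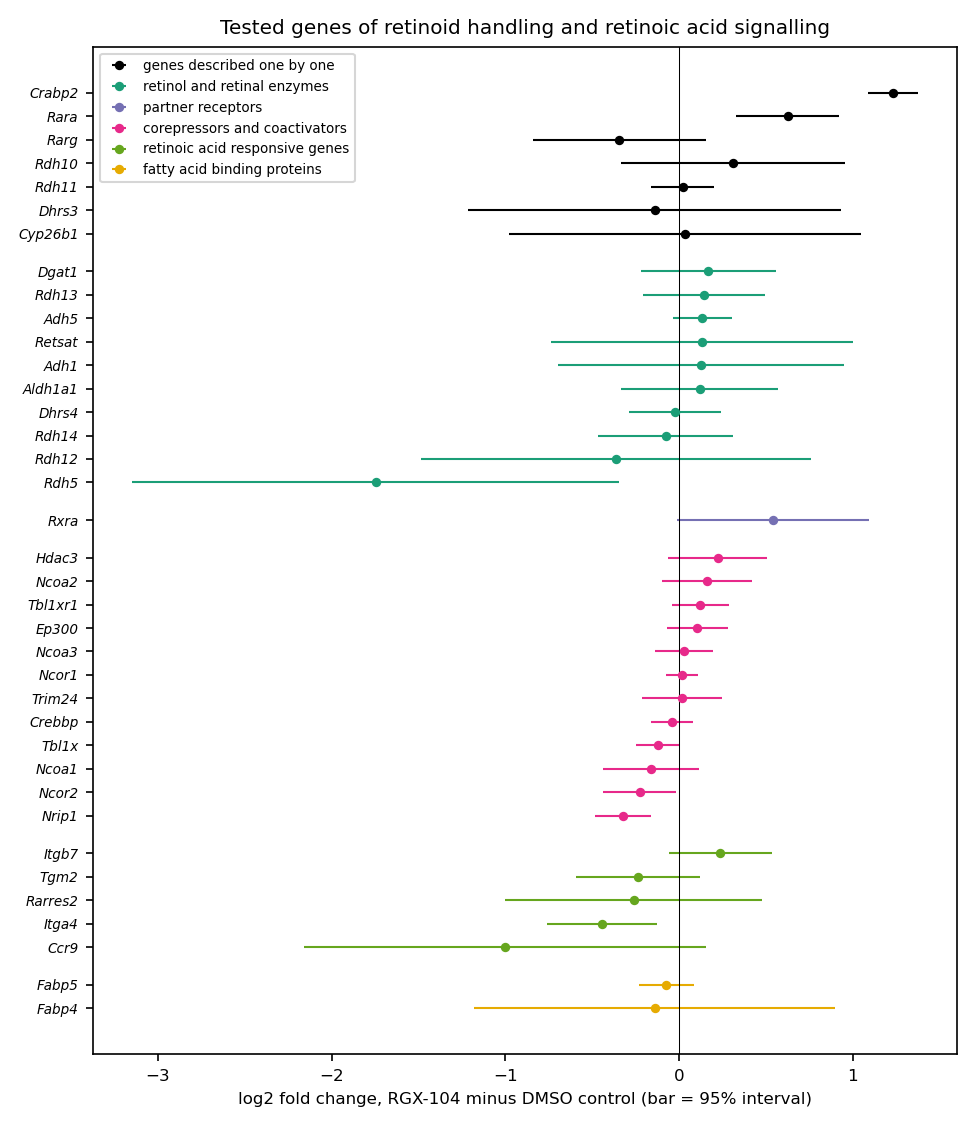
Log2 fold change (RGX-104 minus DMSO control, horizontal) with its 95% interval for the 7 tested retinoic acid genes (black) and the tested genes of the other retinoid lists (coloured by list; carriers and uptake not drawn). Crabp2 has the highest estimate at 1.23, and Nrip1 (-0.32) is the only other-list gene called.

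The genes whose pattern over the 8 libraries was most like that of Crabp2, by Pearson r of log2(CPM + 1) among 10135 genes that averaged 20 or more counts, were Abca1 (r = 0.992), Gzmb (0.990), Arl4c (0.986), Fasn (0.984) and Cd8a (0.984). Abca1 exports cholesterol, Gzmb encodes granzyme B, Arl4c is a small GTPase, Fasn is fatty acid synthase and Cd8a is the CD8 alpha chain. The 8 points form 2 groups, so r reflects the group difference first, and 22 genes had r above 0.95. After each group's mean was subtracted, the closest genes were Elp3 (r = 0.958), Dctpp1 (0.955), Tab1 (0.953), Lmbr1l (0.949) and Use1 (0.947), none of them called by edgeR, with adjusted p between 0.206 and 0.972. Within groups Abca1 had r = 0.32 with Crabp2 and Arl4c r = 0.68. Rara had r = 0.82 with Crabp2 over the 8 libraries but r = -0.51 within groups. These values describe 8 libraries that share depth and scaling, and carry no test.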

How the data were processed

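RNA of 4 RGX-104 and 4 DMSO libraries of sorted OT-I T cells was measured. The deposited values are raw counts of reads for each gene. Libraries were made with a Lexogen 3′ kit per the labels' protocols; per the submitters' processing notes, the authors used STAR 2.7.8a, R 4.1.0, DESeq2 1.4 and GRCm38, in roles that are not stated. How reads were counted (tool, strand, annotation, molecular identifiers) is not given in the sources used here. Columns were matched by the number and group word of sample titles (0 columns belonged to another series). No entry stood for unassigned reads or totals.

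The main test was the quasi-likelihood test of edgeR 4.0.16 (R 4.3.3), two-sided and without robust estimation, on TMM-scaled counts that passed filterByExpr, with group as its single term. P-values were adjusted by Benjamini-Hochberg across 12162 genes. The SE is the log2 fold change divided by the square root of F, and intervals use the fit's degrees of freedom. DESeq2 1.42.0 and limma-voom (limma 3.58.1) were alternatives. Replicates were not repeats of 1 library: over 12 pairs, the chi-square of their counts was 6.54 to 10 times its degrees of freedom. In 2379 entries a number is appended to the symbol; none of the 9 genes has such a repeat, and Rbp7, Rxrb, Gps2 and Fabp3 of the lists do. Coordinates and promoter windows come from RefSeq tables of GRCm38.p6 (250 bases before to 50 after a start), exon overlaps from GENCODE M21.

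The 9 genes and the lists were chosen with earlier results of these data known. Named genes were the 9; from each list every called gene, the gene with the most counts and that with the smallest p; the 5 genes most like Crabp2 in level and the 5 in within-group deviation; Abca1, Abcg1, Cd8a and the 3 dendritic cell markers with most counts. Others named were chosen after their values were seen. One gene that this rule names is not reported here.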

Additional observations from a re-analysis of the deposited data

Results flagged for a closer look

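Of 48 groups of 4 libraries, 4 had 1 library farther from the rest than 95% of such groups would by chance, which flags about 1 group in 20. Crabp1 was at 0.139 CPM in RGX-104 replicate 6 and at 0 in the other 3 treated libraries, and at 0.47 CPM in control replicate 2 and at 0 in the other 3 controls. With 3 libraries at 0, any count in the last one sets it apart, so nothing is read from these 2 groups. Adh5 was at 111 CPM in RGX-104 replicate 8, against 96.0 to 98.4 CPM in the other treated libraries. Abcg1 was at 13.1 CPM in control replicate 3, against 8.54 to 9.18 CPM in the other controls. Neither Crabp2 nor Rara had such a library in either group.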

How the results depend on the processing

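Across 15 alternatives (other scaling, no filter on low counts, DESeq2, limma-voom, robust estimation, removal of entries with a number appended, and each library left out), the log2 fold change of Crabp2 ran from 1.19 to 1.27, given as a description. All 105 values of the 7 tested retinoic acid genes moved by less than the larger of the group SDs of log2(CPM + 1). Leaving out 1 library can move a group mean by only a fraction of that group's SD. This comparison could therefore hardly fail, and nothing is read from it. With 1 library left out, 57 to 93 genes were called higher and 144 to 211 lower; DESeq2 called 190 higher. Of the 9 genes 1 to 2 were called higher with 1 library left out, Rara being lost without RGX-104 replicate 5 or control replicates 2 or 3. Nothing is read from these calls of the 9 genes, since this contrast chose the set. Of the other retinoid genes 0 to 1 was called lower, Nrip1, whose edgeR adjusted p ran from 0.0179 to 0.113. The cause was not tested, and each of these fits also had fewer libraries. Batf3 was called by DESeq2 alone of the tools. No paired analysis was possible because replicate numbers run from 1 to 4 in control and from 5 to 8 in RGX-104 libraries and pair no samples. Depth limits Crabp1, Rarb, Dhrs3, Cyp26b1 and Rdh5, counted at 0 to 26 reads a library.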

Other observations

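P2rx7, an ATP-gated ion channel that retinoic acid induces in mouse intestinal T cells, fell below the filter on low counts and was chosen after its values were seen. It had 3, 5, 4 and 3 counts in RGX-104 replicates 5 to 8, and 14, 17, 20 and 9 counts in control replicates 1 to 4. All treated libraries lay below all controls, with sums of 15 counts in RGX-104 (exact Poisson 95% interval 8.40 to 24.7) and 60 counts in control libraries (45.8 to 77.2), which cover counting error only. Without the filter on low counts, edgeR gave a log2 fold change of -1.85 ± 0.70 with an adjusted p of 0.272, so P2rx7 was not called.

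Neighbouring genes were also chosen after their values were seen. Within 100 kb of Crabp2 8 genes were tested, with log2 fold changes of -0.21 to 0.23. The nearest, Isg20l2, averaged 79.3 ± 15.1 CPM in RGX-104 and 69.7 ± 8.20 CPM in control libraries (log2 fold change 0.18 ± 0.11, edgeR adjusted p = 0.497). Sh2d2a, an adaptor of T cell receptor signalling, was the one called, at 206 ± 13.5 CPM in RGX-104 and 175 ± 4.69 CPM in control libraries (log2 fold change 0.23 ± 0.06, edgeR adjusted p = 0.0334). Within 100 kb of Rara 8 genes were tested and 0 were called by edgeR, with log2 fold changes of -0.71 to 1.44 and the lowest adjusted p at 0.270 (2, Casc3 and Rapgefl1, had an unadjusted p under 0.05). The highest was that of Rapgefl1, at 1.30 ± 0.735 CPM in RGX-104 and 0.475 ± 0.416 CPM in control libraries (log2 fold change 1.44 ± 0.69, edgeR adjusted p = 0.359). Cdc6, which licenses DNA replication, averaged 180 ± 6.58 CPM in RGX-104 and 173 ± 3.24 CPM in control libraries (log2 fold change 0.06, edgeR adjusted p = 0.691).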
